A study of Arabidopsis thaliana with 9 samples.

Results

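Both lines of Arabidopsis thaliana that carry an AUXIN RESPONSE FACTOR10 transgene were compared, as a pair of equal weight, with the wild-type accession Col-0. All arrays of 1 design were used, so the comparison took in 9 of 9 arrays, 6 transgenic and 3 Col-0. ARF10 seeds carried the construct ARF10:ARF10-GFP, built from 3 kb upstream of the gene and its 2.3 kb coding region, with the target site of microRNA160 (miR160) left intact. In mARF10 seeds the construct was ARF10:mARF10-GFP, which has 4 mutations in that site. Col-0 seeds were the untransformed accession. In both constructs the gene's own upstream region stood before the coding sequence, which was fused to green fluorescent protein (GFP). Whether a line came from 1 transformant is not given in the sources used here, and no group with a construct lacking the ARF10 sequence was analysed, so an effect of ARF10, of GFP and of transformation cannot be told apart. Each sample pooled 3 seed lots. Seeds were imbibed in 3 ml of water, chilled in the dark (4 °C, 3 days), and harvested after 22 h in the light at 22 °C. By the labels, the 3 replicates of a genotype are independent biological replicates.

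Auxin response factors are transcription factors that bind auxin response elements in promoters, and ARF10 belongs to the class usually described as repressors. The microRNA miR160 pairs with the transcripts of ARF10, ARF16 and ARF17 and directs their cleavage, so a construct with an intact site is open to this control, which a mutated site is meant to escape. In germinating seeds auxin acts together with abscisic acid, which holds the seed in its maturation state, while gibberellin, greening and the breakdown of reserves mark the passage to a seedling. What both transgenes share whatever the state of the site is the question of the comparison. ARF10 itself has no named probe set in the annotation, and its transcript was not analysed here.

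The measurement is the log2 signal of a probe set on an array, and the array medians lay between 7.06 and 7.11. A probe set was tested where its mean over the 9 arrays reached 5.72, which kept 15922 of 22746, and 8926 of those carry 1 named gene. Col-0 replicate 2 stood apart: it was the highest or the lowest of the 9 arrays in 50.8% of tested probe sets, against 14.1% to 23.0% for each of the other arrays. The median SD over 3 arrays was 0.083 in ARF10, 0.10 in mARF10 and 0.14 in Col-0 seeds. For named genes and for lists of 5 or more genes, a difference that moved by over 1.5 times without this array is given both ways where that fit was made for it. The labelled material, germinating seed, was checked against genes of reserve use. ICL, the isocitrate lyase gene of this pathway, was near the top of the signal range on all arrays and lay between 14.63 and 14.78 on the 6 transgenic arrays and between 14.64 and 14.68 on the 3 Col-0 arrays.

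Seeds of both lines differed little from Col-0 in common. The gene with the widest gap between Col-0 and the arrays of both lines was QQS, a gene of starch and protein balance, with a signal 2.06-fold lower in the transgenic seeds. Plastid-encoded petL (0.67) and psaJ (0.42) and the cell wall gene sks16 (0.82) had the 3 largest log2 differences among the 12 leading genes higher on every transgenic array. None of these passed over all probe sets. By their list medians, late embryogenesis abundant (LEA), storage and iron genes lay on opposite sides of Col-0 in ARF10 and mARF10 seeds. For LEA genes the mARF10 median was only 0.14, and the list means of the mARF10 arrays overlapped those of Col-0.

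No probe set passed the limma test of both lines minus Col-0 at an adjusted p of 0.05, which is 0% of 15922, and the smallest adjusted p was 0.282. The unadjusted limma p was under 0.05 for 922 probe sets (5.79%), 425 with a positive (2.67%) and 497 with a negative difference (3.12%). A test without moderation called 0 as well, with 898 unadjusted. The median difference over all tested probe sets was 0.00 (-0.001) and the median size of a difference 0.080. The 95% interval of a difference reached a median of 0.195 to either side, and for 98.2% of probe sets it lay wholly within a 2-fold change in either direction. For those probe sets a shared difference of 2-fold or more is outside the interval, while smaller ones can lie within it. The orthogonal comparison within the same model, mARF10 minus ARF10, called 65 probe sets (0.408%), with 1741 unadjusted (10.9%). Set singly against the same 3 Col-0 arrays, ARF10 had 0 calls and 739 unadjusted (4.64%), and mARF10 had 0 calls and 1697 unadjusted (10.7%).

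QQS (AT3G30720, chromosome 3) had the smallest p of all 15922 probe sets. The gene is known as an orphan gene, without recognised relatives outside Arabidopsis, whose small protein affects how carbon and nitrogen are shared between starch and protein. Its log2 signal was 5.68, 5.86 and 5.74 in ARF10 seeds, 5.70, 5.83 and 5.79 in mARF10 seeds, and 6.95, 7.06 and 6.43 in Col-0 seeds. Every transgenic array lay below every Col-0 array, with a gap of 0.56 between the highest transgenic and the lowest Col-0 value. The next widest gap among all tested probe sets was 0.20, in the unnamed probe set 254288_at.

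QQS differed by -1.04 between both lines and Col-0 (SE 0.13, 95% interval -1.33 to -0.75), a signal 2.06-fold lower in the transgenic seeds, and this did not pass over all probe sets (limma, adjusted p = 0.282, unadjusted p = 1.77e-05). The lines lay close together: ARF10 minus Col-0 was -1.05, mARF10 minus Col-0 was -1.03 (-1.035), and mARF10 minus ARF10 was 0.01 with a 95% interval of -0.32 to 0.35 (limma, adjusted p = 0.985). Without Col-0 replicate 3, the lowest of the Col-0 arrays, the difference was -1.23 and passed (limma, adjusted p = 0.0044). Without Col-0 replicate 2 it was -0.92 and without Col-0 replicate 1 it was -0.97, neither passing. The transgenic means of 5.76 and 5.77 lie close to the limit of 5.72 for testing, which makes the size of its difference uncertain.

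The nearest named and tested genes on either side of QQS in the annotation's order showed no difference of this size. AT3G30710, at position -12 in genes from QQS, differed by -0.07, and AT3G30810, at position 37, by 0.04. No named gene closer to QQS was tested, so its immediate neighbours were not examined. Of the other starch genes measured, DPE1, which encodes a plastid disproportionating enzyme, differed by 0.22 (0.06 without Col-0 replicate 2) and AMY1, an alpha-amylase gene, by 0.04 (0.045), neither passing.

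**Figure D1:**
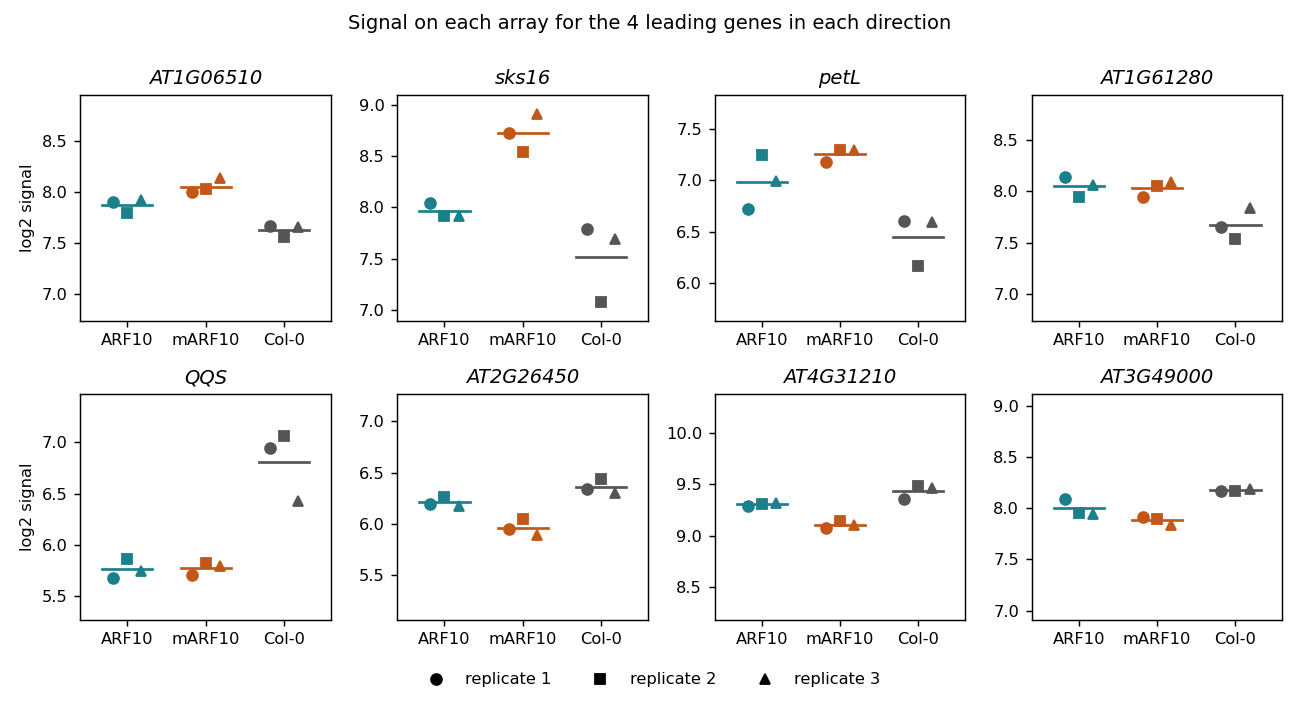
Each panel gives the log2 signal of 1 gene on the 9 arrays, by genotype on the horizontal axis, with a symbol for each replicate and a line at the genotype's mean over 3 arrays; all panels span the same range of log2 signal. In the 4 upper panels every transgenic point is above every Col-0 point, in the 4 bottom panels every one is lower, and the widest gap is the 0.56 of QQS.

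Over all tested probe sets 305 (1.92%) had all 6 transgenic arrays on one side of all 3 Col-0 arrays. Of these, 156 (0.980%) were higher and 149 (0.936%) lower in the transgenic seeds, with median differences of 0.18 and -0.18 (-0.185). None of the 305 was among the 65 probe sets called between mARF10 and ARF10. Those 65 made up 0.408% of all tested, and 0 of 305 is close to that share. The split between the directions moved with the scaling: it was 170 higher and 133 lower after quantile normalization and 288 higher and 89 lower after centring each array on its median.

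The direction went with brightness in the deposited values, and the scaling moved this. Among the 3981 brightest tested probe sets (means above 9.54) 81 were higher and 12 lower in the transgenic seeds, and among the 3981 dimmest 23 were higher and 48 lower. After quantile normalization those counts were 42 and 36 for the brightest and 51 and 35 for the dimmest. After median centring they were 126 and 7 for the brightest and 50 and 29 for the dimmest, and without Col-0 replicate 2, where fewer arrays have to be apart, 161 and 47 for the brightest and 87 and 125 for the dimmest. The median difference of the brightest group was 0.04 (0.035) as deposited and 0.01 (0.006) after quantile normalization. The 24 genes named for the direction of their differences kept their sign under quantile normalization and median centring.

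The 12 genes with the smallest p among those higher on every transgenic array had log2 differences of 0.21 to 0.82, and none passed (limma, adjusted p = 0.740 for each). sks16, a gene of the SKU5-similar family of multicopper oxidase-like cell wall proteins, had 8.05, 7.92 and 7.92 in ARF10 seeds, 8.73, 8.54 and 8.91 in mARF10 seeds, and 7.79, 7.08 and 7.70 in Col-0 seeds. Its difference was 0.82 (SE 0.15), a 1.77-fold higher signal, and 0.60 without Col-0 replicate 2, the lowest Col-0 value. The mARF10 arrays lay above the ARF10 arrays, with 1.21 and 0.44 over Col-0, and the difference between the lines of 0.77 did not pass with all arrays at equal weight (limma, adjusted p = 0.131) but did without Col-0 replicate 2 (adjusted p = 0.00743) and with array weights (adjusted p = 0.00209). Leaving out a Col-0 array does not change the 0.77 itself, only the spread that the genotypes share in the model. The Col-0 SD of sks16 was 0.387 with all arrays.

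Plastid-encoded petL, for a small subunit of the cytochrome b6f complex, had 6.72, 7.25 and 6.99 in ARF10 seeds, 7.18, 7.30 and 7.30 in mARF10 seeds, and 6.60, 6.16 and 6.59 in Col-0 seeds. The difference was 0.67 (SE 0.13), with ARF10 replicate 1 closest to the Col-0 arrays. psaJ, for a small subunit of photosystem I, had 10.15, 10.30 and 10.15 in ARF10 seeds, 10.55, 10.06 and 10.37 in mARF10 seeds, and 9.87, 9.83 and 9.82 in Col-0 seeds. Here the Col-0 arrays were tight (SD 0.031), and the difference was 0.42 (SE 0.099).

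The next genes had smaller differences. ty2, a plastid thioredoxin gene, differed by 0.32. LHCB4.3, for a minor antenna protein of photosystem II, differed by 0.27, and AT2G45870, of the bestrophin-like chloride channels, by 0.26. AT1G61280, whose product is of the PIG-P family of membrane anchor synthesis, had 8.14, 7.94 (7.945) and 8.06 in ARF10 seeds, 7.95, 8.06 and 8.09 in mARF10 seeds, and 7.65, 7.54 and 7.84 in Col-0 seeds. Its difference was 0.36 (0.365), nearly equal in the lines (0.37 in ARF10 and 0.36 in mARF10).

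AT1G06510 differed by 0.34 (0.335), with 7.90, 7.79 and 7.92 in ARF10 seeds, 7.99, 8.03 and 8.13 in mARF10 seeds, and 7.66, 7.56 and 7.66 in Col-0 seeds. The remaining genes of this direction were AT3G20260 (a difference of 0.41), AT1G71730 (0.33), AT3G23600 of the alpha/beta hydrolase superfamily (0.21) and DI19 (0.26), a zinc finger gene first described as drought-induced. All of them had positive values in both lines.

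The 12 genes lower on every transgenic array were led by QQS, and the other 11 had small differences, from -0.20 to -0.37, none passing (limma, adjusted p = 0.740 for each). AT2G26450, of the pectin methylesterase family that modifies cell wall pectin, had 6.19, 6.26 and 6.18 in ARF10 seeds, 5.95, 6.04 (6.045) and 5.89 in mARF10 seeds, and 6.34, 6.44 and 6.30 in Col-0 seeds. That is a difference of -0.27 (SE 0.061), with a gap of only 0.039 between the groups. AT4G31210, of the type IA DNA topoisomerases, differed by -0.23, with 9.29, 9.31 and 9.32 in ARF10 seeds, 9.08, 9.14 and 9.10 in mARF10 seeds, and 9.36 (9.355), 9.48 and 9.46 in Col-0 seeds.

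The other genes of this direction had differences of similar size. AT3G49000, of a family of RNA polymerase III subunits, had 8.09, 7.96 and 7.94 in ARF10 seeds, 7.91, 7.90 and 7.84 in mARF10 seeds, and 8.17, 8.17 and 8.18 in Col-0 seeds, a difference of -0.23. The kinase-type genes AT1G07650 and AT1G70740 differed by -0.34 and -0.21, and AT5G22760, which encodes a protein with a PHD finger, differed by -0.21. ATJ1, a DnaJ-type co-chaperone gene, differed by -0.24, nearly equally in ARF10 (-0.24) and mARF10 (-0.23). AT3G26730, of the RING/U-box proteins, differed by -0.37 and AT3G03790, an ankyrin repeat gene, by -0.29, and both had their highest value on Col-0 replicate 2. Without that array they stood at -0.22 and -0.19, while AT4G37080 stood at -0.19, against -0.29 with all arrays. AT4G08830 differed by -0.20.

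**Figure D2:**
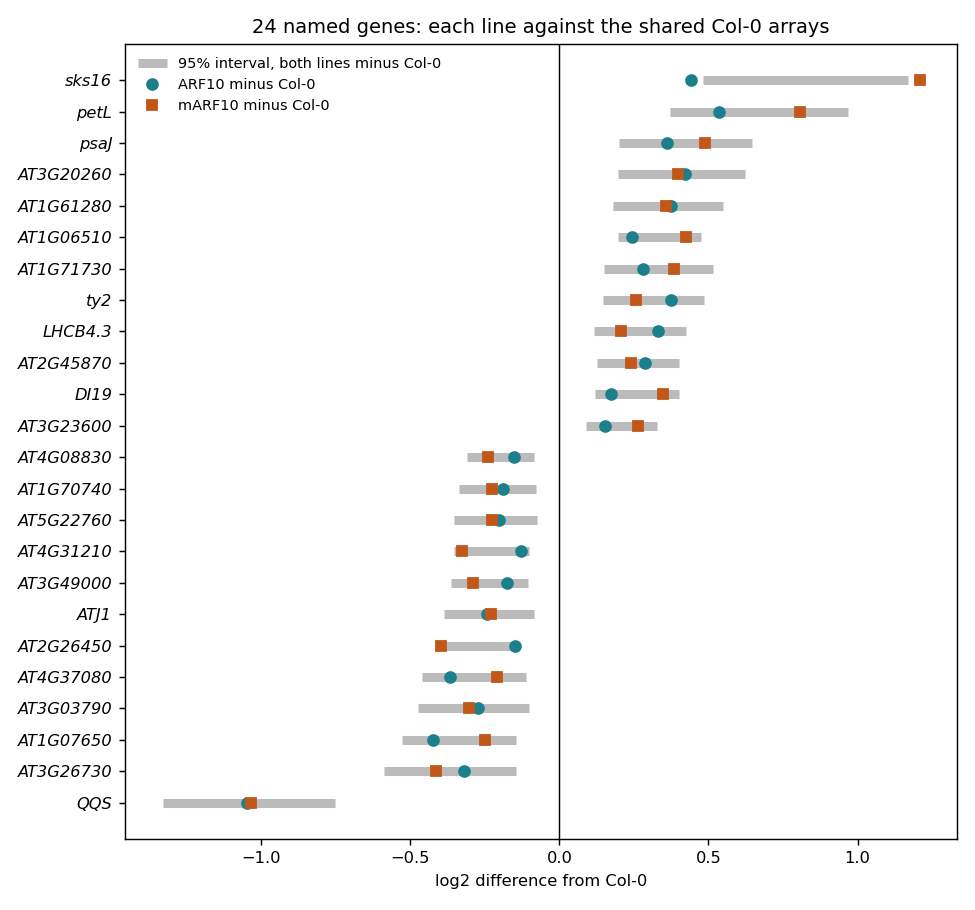
For the 24 named genes the horizontal axis gives the log2 difference from Col-0, with a circle for ARF10, a square for mARF10 and a grey bar for the 95% limma interval of both lines together; both lines are set against the same 3 Col-0 arrays. Circle and square almost coincide for QQS, while for sks16 they stand at 0.44 and 1.21.

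None of the 24 genes passed between mARF10 and ARF10 with all arrays at equal weight, where 0.408% of all tested probe sets did. With array weights AT2G26450 (adjusted p = 0.0267), AT4G31210 (adjusted p = 0.0481) and sks16 passed in limma's test. Since every one was chosen with all transgenic arrays on one side, each has the smallest value that an exact permutation of 6 against 3 arrays can give (2-sided p = 0.0238, from 84 splits), and this adds nothing for choosing among them. The 5 separated genes whose lines were most alike relative to their distance from Col-0 were AT1G29070, QQS, AT1G21160, AT3G29120 and AT4G40050. AT1G29070, of the ribosomal protein L34 family, was at 0.22 in each line, and both lines together were at 0.10 without Col-0 replicate 2, against 0.22 with it. AT4G40050 was at -0.18 (-0.175) in ARF10 and -0.17 in mARF10, with 8.21, 8.30 and 8.22 in ARF10 seeds, 8.28, 8.27 and 8.20 in mARF10 seeds, and a narrow 8.44, 8.41 and 8.41 in Col-0 seeds. AT1G21160 was at -0.61 and -0.62 (both lines together -0.28 without Col-0 replicate 2) and AT3G29120 at 0.48 and 0.49, but the Col-0 arrays of these genes spread widely, over 6.47 to 7.63 and over 5.43 to 6.24.

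In all, 11 probe sets (0.0691%) differed by at least 2-fold between both lines and Col-0, 10 lower (0.0628%) and 1 higher (0.00628%), and QQS was the only one of the 11 with the groups apart. M17, which encodes a hydrophilic protein of late seed maturation, had the largest negative difference at -1.44. It lay at 5.92, 6.40 and 5.11 (5.105) in ARF10 seeds, 10.01, 9.87 and 9.08 in mARF10 seeds, and 7.77, 9.94 (9.935) and 9.82 in Col-0 seeds. The value is thus a mean of unlike lines, at -3.36 in ARF10 and 0.48 in mARF10. Only the ARF10 arrays lay apart from Col-0. The mARF10 arrays lay above Col-0 replicate 1 but overlapped Col-0 replicates 2 and 3. The limma interval of mARF10 minus Col-0 ran from -0.80 to 1.76, so a side of Col-0 is not shown for mARF10. The 1 higher probe set, the unnamed 253904_at, had its lines on either side of Col-0, at -1.19 in ARF10 and 3.22 in mARF10.

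Among probe sets with no named gene, those with the smallest p and the groups apart were 253522_at (0.34), 265272_at (0.53) and 260140_at (0.45) on the higher side. On the lower side they were 254288_at (-0.29, written to 3 digits -0.295), 254034_at (-0.36) and 261926_at (-0.25). None of these 6 passed.

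Transcripts encoded in the plastid genome were measured for 59 of 69 named genes. With all arrays 47 of the 59 had positive differences, where 49.9% of all tested probe sets did, and the median was 0.12, against 0.00 (-0.001) over all. None passed, 6 had an unadjusted limma p under 0.05 (5.79% of all tested did), and 2 (petL and psaJ) were apart, where 1.92% of all tested probe sets were. Without Col-0 replicate 2 the positive count was 38 of 59 and the median 0.04 (0.035), so most of the median rested on that array. The list median was 0.05 in ARF10 and 0.18 in mARF10.

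The genes around petL and psaJ on the plastid map, picked out after their values were seen, had positive differences with and without Col-0 replicate 2. In map order they are psbE, for a subunit of photosystem II (0.080, and 0.082 without that array), petL (0.67 and 0.53), petG, for another small subunit of the cytochrome b6f complex (0.24 and 0.14), psaJ (0.42 and 0.42), and the ribosomal protein genes rpl33 (0.18 and 0.32), rps18 (0.21 and 0.31) and rpl20 (0.12 and 0.035). Of these, petL and psaJ had the groups apart. The ends of this run were set by sign: the next measured genes, psbF (-0.009 and 0.035) before it and clpP (-0.14 and -0.084) after it, were negative with all arrays. Such runs of positive differences also occurred elsewhere: matK (0.17 and 0.068), rps16 (0.29 and 0.26), psbK (0.37 and 0.17) and psbI (0.25 and 0.16) follow each other among the measured genes. Their neighbours psbA (0.11 and -0.053) and atpA (0.099 and -0.082) were negative without Col-0 replicate 2. In this second run, rps16, a ribosomal protein gene, had 5.87, 6.03 and 5.78 in ARF10 seeds, 5.87, 6.05 and 6.26 in mARF10 seeds, and 5.80, 5.65 and 5.62 in Col-0 seeds, and its groups overlapped on 1 pair of arrays.

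**Figure D3:**
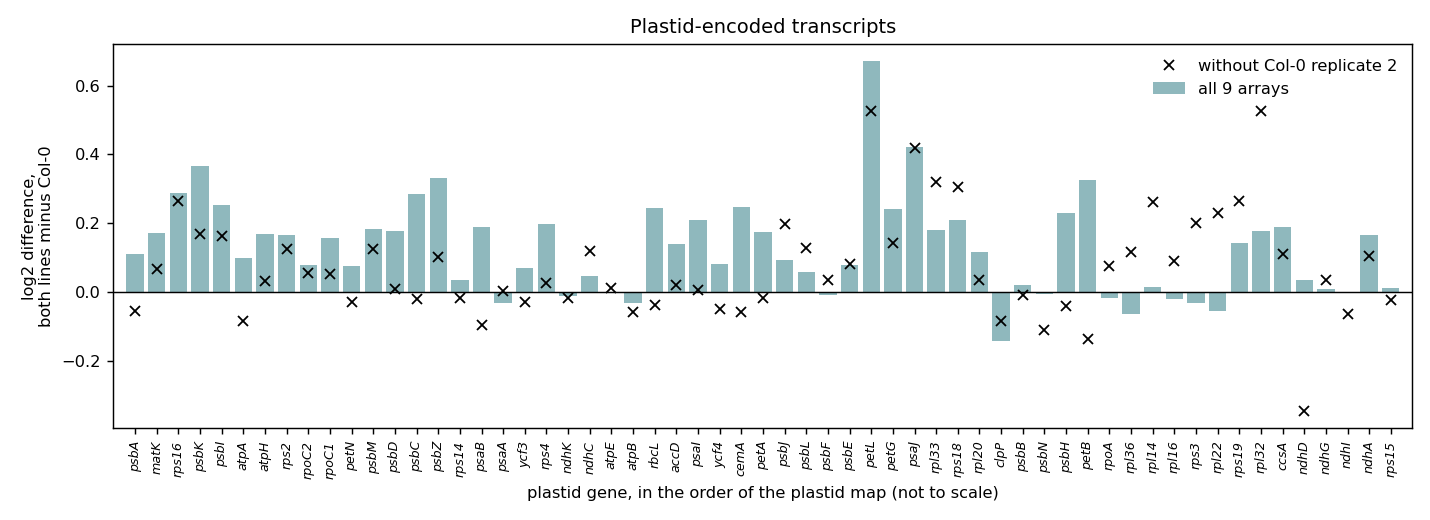
Bars give the log2 difference of both lines minus Col-0 for the 59 measured plastid genes in map order, not to scale, and crosses give it without Col-0 replicate 2. The bar of petL, at 0.67, is the tallest, and many crosses lie closer to 0 than their bars.

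Nuclear genes of photosynthesis and chlorophyll synthesis had positive differences in 7 of 7 measured members, where 49.9% of all tested probe sets did. Their median was 0.36, and none passed. Their mean log2 signal was 10.22, 9.86 and 10.14 (10.135) in ARF10 seeds, 9.84, 9.56 and 10.18 in mARF10 seeds, and 10.06, 8.76 and 9.77 in Col-0 seeds. The low Col-0 array was replicate 2, and without it the list median was 0.06. PSBW, for a subunit of photosystem II, differed by 0.42, and PORB, which encodes protochlorophyllide oxidoreductase, by 0.69. Without Col-0 replicate 2 they stood at 0.10 and 0.07. LHCB4.3 was the only member with the groups apart, where 1.92% of all tested probe sets were. It had 8.94, 8.88 and 9.05 in ARF10 seeds, 8.85, 8.74 (8.735) and 8.90 in mARF10 seeds, and 8.70, 8.54 and 8.64 in Col-0 seeds.

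Late embryogenesis abundant (LEA) and dehydrin genes, for water-binding proteins made as the seed dries, had a median of -0.29 over 23 measured members. Of these 4 had positive and 19 negative differences, where 49.9% of all tested probe sets were positive. None passed, and in none were the groups apart, as they were in 1.92% of all tested. The median combined lines of opposite sign, -0.69 (-0.695) in ARF10 and 0.14 in mARF10. It also moved with the Col-0 arrays, to 0.01 without Col-0 replicate 2 and to -0.65 without Col-0 replicate 1. The mean log2 signal of the list was 9.32 (9.315), 9.12 and 8.82 in mARF10 seeds, and 8.25, 9.37 and 9.11 in Col-0 seeds. The mARF10 arrays thus lay above Col-0 replicate 1 and overlapped the other Col-0 arrays. Besides M17, the members with the smallest p were AT3G53040 (-0.68, and -0.45 without Col-0 replicate 2) and M10 (-0.96), neither passing.

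Seed storage protein and oil body genes had a median of -0.25 (-0.255) over 6 members, from -1.004 in ARF10 and 0.64 in mARF10. None passed or had the groups apart, where 1.92% of all tested probe sets had them apart. The median ran from -0.63 to -0.07 when 1 array was left out, and its extremes were without Col-0 replicate 1 (-0.63) and Col-0 replicate 3 (-0.07). Without Col-0 replicate 2 it was -0.08. OLEO3, an oleosin gene of the oil body, differed by 0.25, the cupin storage protein gene AT2G28490 by -0.97 and the oleosin gene AT2G25890 by -0.50 (-0.26 without Col-0 replicate 2). Both seed maturation regulators measured, the bZIP transcription factor genes BZIP53 (0.14) and EEL (0.20), failed the test, and without Col-0 replicate 2 they stood at 0.09 and 0.03.

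Iron homeostasis genes also joined lines of opposite sign, with a median of -0.03 over 6 members, -0.45 in ARF10 and 0.65 in mARF10. AT3G58060, of the cation efflux transporters, differed by 0.40 (0.405), with 0.02 in ARF10 and 0.79 in mARF10. BHLH101 and PYE, transcription factor genes of the iron-deficiency response, differed by 0.26 and -0.14 (PYE -0.06 without Col-0 replicate 2). None of these passed. The list median was 0.06 without that array.

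The Aux/IAA and GH3 auxin-response genes had a median of 0.00 (0.004) over 5 members (-0.02 without Col-0 replicate 2). Of these 3 were positive and 2 negative, where 49.9% of all tested probe sets were positive. All 5 had intervals within a 2-fold change, as 98.2% of all tested did. WES1, a GH3 gene whose product conjugates auxin to amino acids, had 8.01 (8.005), 8.04 and 8.10 in ARF10 seeds, 7.79, 7.75 and 7.82 in mARF10 seeds, and 7.998, 8.31 (8.315) and 8.13 in Col-0 seeds. Its difference of -0.23 (-0.15 without Col-0 replicate 2) did not pass and its groups overlapped. IAA18 differed by 0.06 and GH3.17 by 0.17 (-0.03 without Col-0 replicate 2).

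Gibberellin genes had a median of 0.02 over 6 members (-0.01 without Col-0 replicate 2), all with intervals within 2-fold. The receptor genes GID1C and GID1B differed by -0.18 and 0.15 (the second -0.01 without Col-0 replicate 2), and SPT, a bHLH gene that restrains germination, by 0.07 (0.04 without that array). For enzymes that loosen the cell wall the median was 0.16 over 7 members, and 0.12 without Col-0 replicate 2. Over all tested probe sets the median was 0.00 (-0.001). Of the 7 members 5 were positive and 2 negative, where 49.9% of all tested probe sets were positive. The genes of xyloglucan endotransglucosylases XTH33, XTH16 and XTH18 differed by 0.33, 0.16 and 0.38, and without that array by 0.33, 0.06 and 0.15. The expansin genes EXPA15 (-0.39) and EXPA8 (-0.18), named after their values were seen, went the other way with all arrays. Both had their highest Col-0 value on replicate 2. EXPA15 had 9.43, 10.77 and 10.03 in Col-0 seeds, against a mean of 9.69 over both lines. EXPA8 had 10.48, 11.54 and 10.80, against 10.76. In each, the other Col-0 arrays lay on either side of the mean of both lines. None of the genes named from these lists passed, and all 13 members of both lists had intervals within 2-fold.

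**Figure D4:**
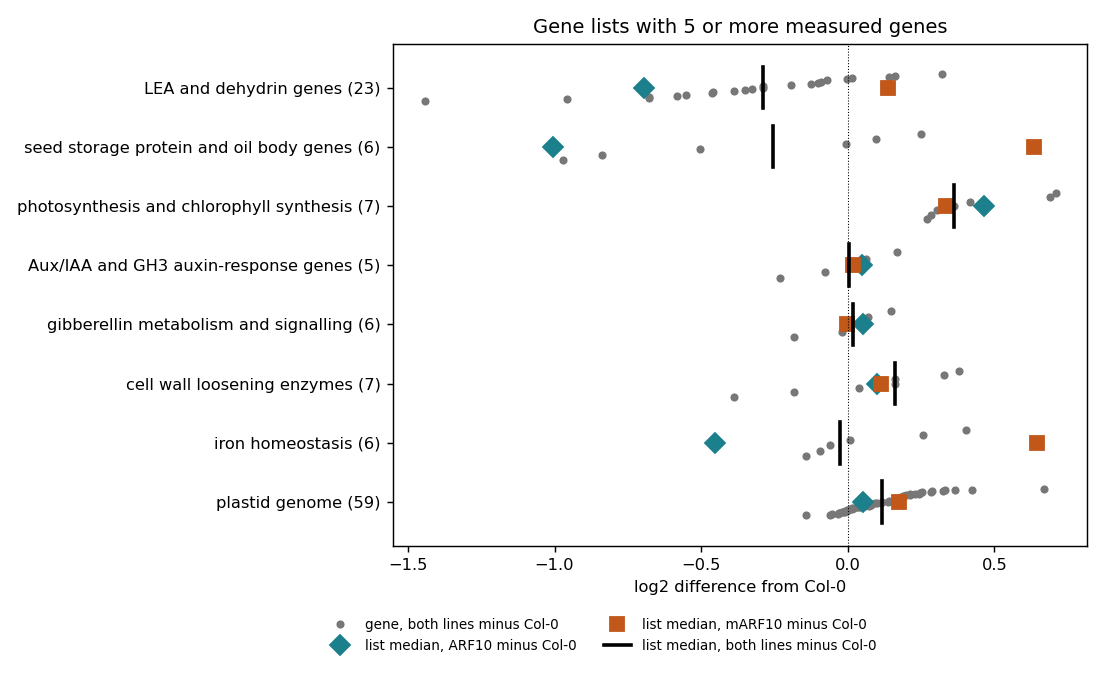
Grey points give the log2 difference of both lines minus Col-0 for each measured gene of 8 lists, a black bar the list median, a diamond the median of ARF10 minus Col-0 and a square the median of mARF10 minus Col-0; numbers in brackets count the genes measured. Diamond and square lie on either side of 0 for LEA, storage and iron genes, and on the same side for photosynthesis genes.

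In lists with fewer than 5 measured genes no member passed. GI (GIGANTEA), of the circadian clock, had a difference of -0.22, from 0.01 in ARF10 and -0.44 in mARF10. Genes of the small RNA pathway were SE (-0.17, and -0.08 without Col-0 replicate 2) and AGO7 (0.065, and 0.02 without it). For storage oil mobilisation SDP1 was at -0.13, ICL at 0.04 and AIM1 at 0.01 (0.04 without that array). The heat shock genes AT5G37670 and ATHSP22.0 were at 0.17 and -0.06 (the second -0.10 without that array), the replication gene PRL at 0.14, and the defensin genes PDF1.2 and PDF1.2b at 0.03 (0.025) and -0.23. Without Col-0 replicate 2, PRL was at -0.06 and PDF1.2b at 0.12. Of tissue markers, BAN of the seed coat was at 0.03, and PHV and CLV3 of leaf polarity and shoot meristem at -0.15 (-0.01 without that array) and 0.02. The reference genes AT2G28390 and AT4G34270 were at 0.05 and 0.04. The annotation named no gene of the lists for the ARF family, auxin transport and perception, abscisic acid (ABA) metabolism and signalling, ABA- and cold-responsive genes or root tip markers, and these were not analysed here.

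By chromosome, the share of named and tested probe sets with the groups apart was 2.10% on chromosome 1, 1.99% on chromosome 2, 1.98% on chromosome 3, 1.76% on chromosome 4 and 1.71% on chromosome 5, against 1.92% of all tested.

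The unadjusted count for both lines minus Col-0 moved with single arrays. Without Col-0 replicate 1 the unadjusted count was 3141, and without Col-0 replicate 2 it was 604. Leaving out ARF10 replicate 1 gave 584, ARF10 replicate 3 gave 575 and mARF10 replicate 3 gave 559. After adjustment 1 probe set was called without Col-0 replicate 1, the unnamed 267026_at, at a log2 difference of -1.42 in that fit. That probe set had 5.65, 5.85 and 5.71 in ARF10 seeds, 6.48, 6.33 and 5.96 in mARF10 seeds, and 5.89, 7.49 and 7.34 in Col-0 seeds, so the array left out was the Col-0 array that overlaps the transgenic ones. Without Col-0 replicate 3 the 1 call was QQS.

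**Figure D5:**
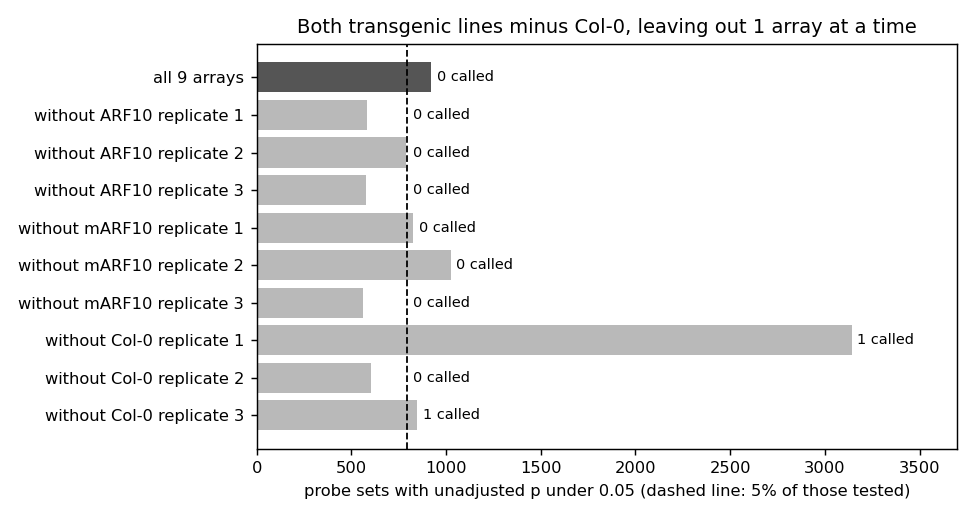
The bars give the number of probe sets with an unadjusted limma p under 0.05 for both lines minus Col-0, with all 9 arrays and with each array left out in turn; the dashed line marks 796, which is 5% of those tested, and the label at each bar gives the number called after adjustment. With all arrays the bar is at 922, and it runs from 559 without mARF10 replicate 3 to 3141 without Col-0 replicate 1.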

How the data were processed

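Per the labels' protocols, total RNA was amplified and labelled with biotin for 1-colour arrays. The authors' deposited values are log2 signals of 22810 probe sets; how they were summarised and normalized is not given in the sources used here, and their range, 3.70 to 14.78, was taken to mean base 2. Control probe sets (64) were left out, and probe sets at or above the 30th percentile of the mean over all arrays were tested. Names came from the platform annotation, through which 13436 probe sets matched 1 gene of assembly TAIR10.1; 8730 were not listed and stay unnamed. limma 3.58.1 in R 4.3.3 fitted 1 mean per genotype over 9 arrays (6 residual and 3.11 prior degrees of freedom), with the contrast of the mean of ARF10 and mARF10 minus Col-0, eBayes and Benjamini-Hochberg adjustment, 2-sided. The fit was tested on simulated data. Named genes are, per direction, the 12 with the smallest unadjusted p among named genes with the groups apart, as none passed; up to 3 members per list; up to 3 unnamed probe sets per direction; and the 5 most alike in both lines. A gene with several probe sets took the brightest. The comparison, the 24 lists and the rules were chosen with earlier results of these data known. Plastid genes were found by chromosome, since locus prefixes matched none. No promoter or protein sequence was used here, so the planned motif count was not run. Alternatives were other filters, scalings, error models and the omission of each array. The number of arrays limits the precision.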

Additional observations from a re-analysis of the deposited data

Results flagged for a closer look

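In 7 named genes the 2 transgenic lines differed from each other in limma's test of mARF10 minus ARF10, so their mean against Col-0 describes neither line. Of all tested probe sets 0.408% were called in that test. All 7 came from lists chosen with earlier results of these data known, so their number says nothing about the lists. M17 differed by 3.84 between the lines (limma, adjusted p = 0.0317), with mARF10 at 0.48 and ARF10 at -3.36 relative to Col-0. OLEO3 differed by 1.09 (adjusted p = 0.012), with 0.80 in mARF10 and -0.29 in ARF10. EEL, a bZIP gene of seed maturation, differed by 1.02 (adjusted p = 0.0499), with 0.71 in mARF10 and -0.31 in ARF10. Among iron genes, AT3G58060 differed by 0.77 (adjusted p = 0.0317), BHLH101 by 1.06 (adjusted p = 0.0243) and PYE by 1.14 (adjusted p = 0.0243). GI differed by -0.45 (adjusted p = 0.0425), with -0.44 in mARF10 and 0.01 in ARF10.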

How the results depend on the processing

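limma called 0 probe sets for both lines minus Col-0 under every alternative with all 9 arrays: no filter (1293 unadjusted), a filter at the 50th percentile (668, which leaves QQS out), centring each array on its median (1006), quantile normalization (894), raising values under 4 to 4 (922), trended and robust eBayes (902), gene-by-gene array weights (1810), 2 groups in place of 3 (772) and no moderation (898). Requiring both lines to pass by their own contrasts with the same sign also gave 0 calls. Its unadjusted count of 137 follows a stricter rule than the other counts. The default estimate of array weights did not converge, giving Col-0 replicate 3 a weight of 18.6 and 5366 calls, and was not used. Leaving out 1 array gave 0 to 1 calls and 348 to 2130 probe sets with the groups apart, with 505 without ARF10 replicate 2, 528 without mARF10 replicate 2, and 2130, 770 and 829 without Col-0 replicates 1, 2 and 3; fewer arrays then have to be apart. Leaving out 1 array also gave 0 to 1 of the 24 named genes called between the lines; with array weights there were 3, AT2G26450, AT4G31210 and sks16. Over all alternatives 0 of the 24 genes changed sign. Since they were chosen with the groups apart, only a change of scaling could have reversed a sign, so the other alternatives do not test this. The adjusted p of QQS in limma's test ran from 0.0044 to 0.919.

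The replicate number as a block gave 0 calls (1498 unadjusted) as a fixed term and 0 calls (1350 unadjusted) as a random one. Of 9 pairs of arrays with the same number, 7 had correlated deviations above 0.1 (from -0.17 to 0.49 in all), and 4 of 9 arrays correlated best with their own number in both other genotypes. Pairs with different numbers ran wider, from -0.65 (Col-0 replicate 2 with mARF10 replicate 3) to 0.61 (Col-0 replicate 1 with mARF10 replicate 3). These correlations do not settle whether the numbers pair the samples. The labels state no pairing beyond the shared numbers, so the block was used only as an alternative.

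Small differences changed sign in 17 of 1403 repeats. With array weights PYE was at 0.07, AGO7 at -0.07, PDF1.2 at -0.05 and BAN at -0.02. Leaving out 1 array gave ranges of -0.04 to 0.04 for AIM1, -0.01 to 0.08 for AMY1, -0.11 to 0.05 for ATHSP22.0, -0.06 to 0.08 for CLV3, -0.03 to 0.29 for GH3.17, -0.01 to 0.27 for GID1B, -0.03 to 0.07 for PDF1.2, -0.59 to 0.12 for PDF1.2b and -0.06 to 0.35 for PRL. The cause was not tested.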
